A study of Mus musculus with 18 samples.

Results

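The 9 genes described here encode high-mobility-group (HMG) chromatin proteins of mouse myoblasts: Hmgn1, Hmgn2, Hmgn3 and Hmgn5, Hmga1 and Hmga2, and Hmgb1, Hmgb2 and Hmgb3. They were chosen by symbol as the members of the HMGN, HMGA and HMGB families present in the data. They are 9 of 19153 genes with deposited values, and all 9 were among the 17672 genes that passed the filter on low counts and were tested. RNA-seq was performed on immortalized myoblasts, precursor cells of skeletal muscle, in 18 libraries, 3 in each of 6 groups. Wildtype (WT) and LAP2alpha knockout (KO) cells were each taken while proliferating (Prol), at confluence (D0), and at day 2 of differentiation (D2), after 48 hours in 5% serum in place of 20%. All cells of both genotypes carried a p53 knockout, the KO pool was made with CRISPR-Cas9 and sorted in bulk rather than grown from 1 clone, and the WT control had received the Cas9 vector without a guide. LAP2alpha, a product of the gene Tmpo, is a nucleoplasmic protein that binds A-type lamins, and the comparisons ask how its loss and the onset of differentiation change gene expression.

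HMG proteins are small, abundant non-histone proteins that bind chromatin and change its folding and its access for other factors. The HMGN proteins bind nucleosomes directly and compete there with linker histone H1. The HMGA proteins bind the minor groove of AT-rich DNA through AT hooks and are typical of embryonic and dividing cells. The HMGB proteins bend DNA with HMG boxes, and HMGB1 can also leave the cell and act as a danger signal on receptors such as RAGE and Toll-like receptors. LAP2alpha is known to bind HMGN5.

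The values are read counts scaled to a common library size (CPM), set between libraries by the depositors, and fold changes are on the log2 scale of these values with their standard error (SE). The libraries held 26437823 to 41619016 assigned reads each, with a median of 32939620, so that 3 reads correspond to between 0.0759 and 0.138 CPM and every HMG gene lay well above this in every library. Tests used limma over all 18 libraries with Benjamini-Hochberg adjustment over the 17672 genes, and a gene was called at an adjusted p under 0.05. Nothing states whether replicates came from separate cultures, so the p-values measure the spread between these libraries, which may be technical. Tmpo was at 300 CPM ± 21.8 (SD, n = 3) in WT Prol and 246 ± 16.6 in KO Prol, but this value sums all transcripts of the gene and does not separate LAP2alpha from the other isoforms. Trp53 transcripts were counted in every group, from a mean of 44.5 CPM in KO D2 to 136 CPM in WT Prol, which does not bear on whether a protein is made. Among myoblast markers, Myf5 was at 24.5 CPM in WT Prol while Myod1 was at 2.59 and Des at 3.44 CPM, and Myod1 reached 88.9 CPM in WT D2. The immune marker Cd68 reached at most 3.22 CPM in any library, the sum of the endothelial markers Pecam1, Kdr and Tie1 at most 2.57 CPM, and the sum of 3 adipocyte markers at most 31.8 CPM. Of 5 fibroblast markers, 4 were found, of which Dpt, Pdgfra and Thy1 rose between WT Prol and WT D2. The sum of all 4 ranged from 97.4 to 248 CPM in WT Prol and from 445 to 883 CPM in WT D2. Col6a3 was the highest of the 4, at a mean of 129 CPM in WT Prol and 438 CPM in WT D2. The part of these other cells or states in the HMG levels was not tested, and in bulk RNA fewer cells of a type and less RNA per cell cannot be told apart.

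Promoter sequences are shown for Hmgb2 and Hmgb3, which fell together with cell-cycle genes. Hmga1, with the largest fall of the 9 in WT, is not shown, and its windows held none of the motifs marked below. A link between motifs and falls was not tested. RefSeq promoters were matched for 8 of the 9 genes, with 2 start sites each for Hmga1 and Hmgb1, and no entry was matched for Hmgn3. The 250 bases before the start site were read on the gene's strand in GRCm38.p6. The Hmgb2 window is chr8:57511593-57511842 and the Hmgb3 window is chrX:71555667-71555916, both on the plus strand. Capitals mark CCAAT boxes (CCAAT or ATTGG) and cell-cycle homology region (CHR) letters (TTTGAA or TTCAAA), which are motifs typical of promoters active in dividing cells.
Hmgb2: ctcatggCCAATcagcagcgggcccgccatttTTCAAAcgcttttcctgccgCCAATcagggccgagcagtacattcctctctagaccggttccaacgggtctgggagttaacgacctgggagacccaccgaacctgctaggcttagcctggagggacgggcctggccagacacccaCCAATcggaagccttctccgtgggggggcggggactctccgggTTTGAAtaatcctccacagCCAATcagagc
Hmgb3: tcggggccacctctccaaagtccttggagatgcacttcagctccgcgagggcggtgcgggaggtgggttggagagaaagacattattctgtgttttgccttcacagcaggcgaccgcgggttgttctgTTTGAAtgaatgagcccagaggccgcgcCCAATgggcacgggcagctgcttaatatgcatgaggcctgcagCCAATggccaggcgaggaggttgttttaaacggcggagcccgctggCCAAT

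The Hmgb2 window held 4 CCAAT boxes and 2 CHR matches, one of which ends 25 bases before the start site. The Hmgb3 window held 3 CCAAT boxes and 1 CHR match. Of 32851 promoter windows of the same length, 33.8% held a CCAAT box on either strand, 2.79% held 3 or more, and 16.0% held the CHR letters. The more upstream start site of Hmgb1 held 3 CCAAT boxes, Hmgn1 and Hmgn5 held 2 each, and the windows of Hmga1, Hmga2, Hmgn2 and the other start site of Hmgb1 held none. No HMG window besides those of Hmgb2 and Hmgb3 had the CHR letters. Of 17 windows of 16 cell-cycle genes from the list of 20 used below, 15 held a CCAAT box and 5 the CHR letters. An E2F motif (TTTCGCGC, TTTGGCGC, TTTCCCGC or TTTGCCGC on either strand) was in 0 of the 10 HMG windows, in 4 of the 17 cell-cycle windows and in 1.86% of all windows. TATAAA was in 0 of the 10 HMG windows and in 12.4% of all windows. The E-box CAGCTG was in 4 of the 10 HMG windows (both of Hmga1, which overlap, the more upstream start site of Hmgb1, and Hmgb3) and in 13.0% of all windows. A match is a run of letters and was not tested as a binding site.

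Read per kilobase of the main coding transcript, the order of the 9 genes in WT Prol ran from Hmgn1 at 276 CPM per kb ± 36.3 (SD, n = 3), through Hmgn2 at 236 ± 62.0, Hmga1 at 232 ± 65.6 and Hmgb1 at 216 ± 18.5, to Hmgb2 at 111 ± 7.38 and Hmga2 at 84.9 ± 35.8, and then to Hmgb3 at 53.7 ± 4.01, Hmgn3 at 38.5 ± 2.96 and Hmgn5 at 9.51 ± 3.85. Each of the first 4 overlaps its neighbour in this order in its libraries, as do Hmgb2 and Hmga2, and Hmga2 and Hmgb3, so the order of these neighbours lies within the spread between replicates, while all libraries of Hmgn1 lay above all of Hmgb1. In WT D2 the order was Hmgn1 at 172 CPM per kb, Hmgn2 at 147, Hmgb1 at 97.3, Hmgn3 at 46.2, Hmgb2 at 27.2, Hmga1 at 26.8, Hmga2 at 23.6, Hmgb3 at 7.53 and Hmgn5 at 4.25. Among these 9, Hmgn1 and Hmgn2 had the highest mean level per kb in both states, while Hmga1 went from rank 3 to rank 6 and Hmgn3 from rank 8 to rank 4. In WT D2, libraries of Hmgn3 (30.5 to 59.1), Hmgb2 (13.5 to 35.2), Hmga1 (19.5 to 37.3) and Hmga2 (17.0 to 35.1) overlap, so these ranks lie within the spread between replicates. The order leaves out Hmga1b, a near-identical copy of Hmga1, at 127 CPM per kb in WT Prol. Reads are split uncertainly between both, so the rank of Hmga1 is uncertain too.

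**Figure D1:**
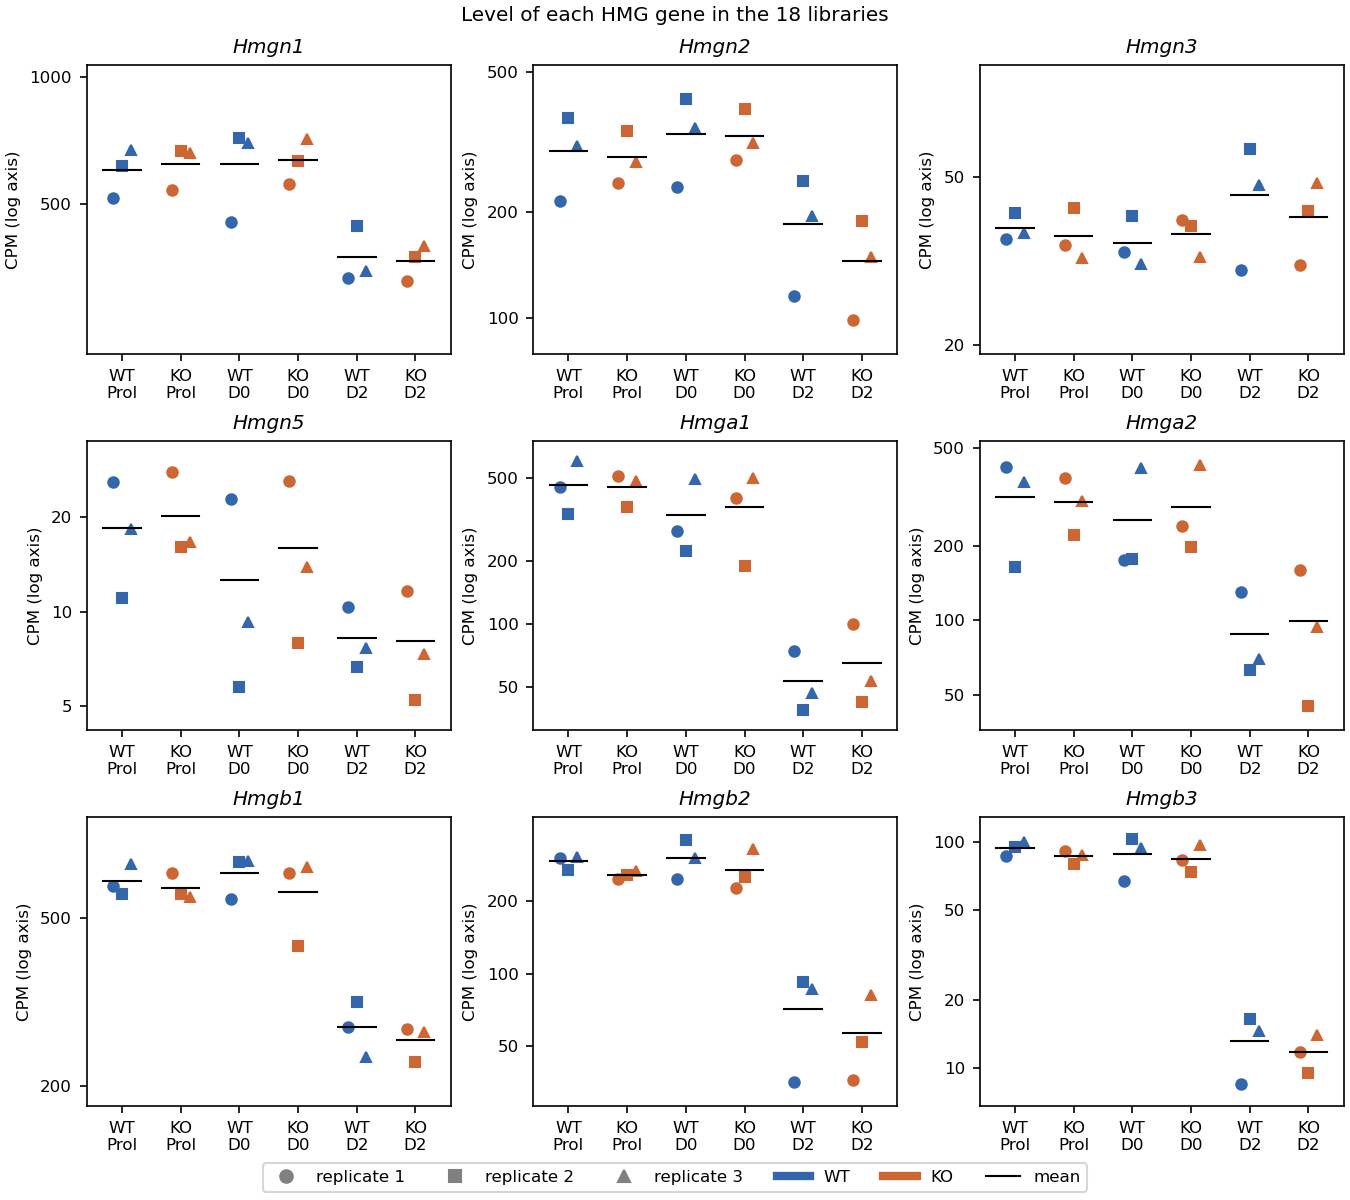
CPM of each HMG gene (vertical log axis) in the 18 libraries by group (horizontal axis), with the symbol giving the replicate number, the colour the genotype, and the black line the mean of 3 libraries. Both D2 groups lie below all Prol libraries for Hmgn1, Hmga1, Hmga2, Hmgb1, Hmgb2 and Hmgb3, Hmgn3 overlaps in every group, and the WT and KO points of a state lie among each other except for Hmgb2 in Prol.

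Most HMG transcripts were lower at D2 than in Prol in WT cells. Between Prol and D2, 6 of the 9 genes fell and 0 rose at an adjusted p under 0.05 (limma), where 14.1% of all tested genes fell and 30.7% changed in either direction. The summed level of the 9 genes was 2732 CPM ± 307 (SD, n = 3) in WT Prol and 1115 ± 145 in WT D2. By family, the HMGA sum went from 778 to 141 CPM, the HMGB sum from 998 to 361 CPM and the HMGN sum from 955 to 613 CPM. The median log2 fold change of the 9 genes was -1.16, against -0.01 over all tested genes. The libraries of the D2 and Prol groups did not overlap for 7 of the 9 genes, all lower in D2, where 20.5% of all genes were lower without overlap.

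Among the HMGN genes, Hmgn1 (chr16:96120618-96127729, minus strand, GRCm38), which encodes a nucleosome-binding protein that loosens chromatin folding, was at 515, 614 and 671 CPM in WT Prol and at 333, 442 and 347 CPM in WT D2. Each D2 library lay below each Prol library. The log2 fold change was -0.68 (SE 0.22, limma adjusted p = 0.025). This call was lost when WT Prol replicate 2 (adjusted p = 0.0668), WT Prol replicate 3 (0.104), WT D2 replicate 1 (0.0698) or WT D2 replicate 3 (0.0818) was left out, and in a fit on library totals alone (0.105), which moved the median of all genes by 0.162. Hmgn2 (chr4:133964738-133968650, minus strand), a close relative with the same nucleosome-binding domain, was at 216, 372 and 309 CPM in WT Prol and at 116, 246 and 195 CPM in WT D2. These groups overlap, although each D2 library lay below the Prol library of the same number. The log2 fold change of -0.72 (SE 0.32) did not pass the test (adjusted p = 0.0991).

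Hmgn5 (chrX:109004534-109013404, minus strand), whose protein carries a long acidic tail and binds LAP2alpha, had the lowest level per kb of the 9. It was at 25.9, 11.0 and 18.3 CPM in WT Prol and at 10.4, 6.68 and 7.64 CPM in WT D2. Every D2 library was below every Prol library, but the Prol libraries alone spanned more than 2-fold, and the log2 fold change of -1.10 (SE 0.50) did not pass the test (adjusted p = 0.112). Hmgn3 (chr9:83109948-83146685, minus strand), a family member with more restricted tissue expression, was at 35.5, 41.1 and 36.8 CPM in WT Prol and at 30.0, 58.1 and 47.9 CPM in WT D2. It was the one HMG gene with a higher mean in D2, its groups overlap, and its log2 fold change of 0.21 (SE 0.23) did not pass the test (adjusted p = 0.534). The 95% interval of this difference, -0.27 to 0.70, leaves out a fall of the size seen for Hmgn1.

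The 2 HMGA genes fell. Hmga1 (chr17:27556497-27563674, plus strand), which encodes the AT-hook protein of dividing cells, was at 453, 337 and 599 CPM in WT Prol and at 74.6, 39.0 and 47.1 CPM in WT D2, with no overlap. It fell 8.75-fold (log2 -3.13, SE 0.41, limma adjusted p = 2.84e-05), the largest fall of the 9 in WT. Hmga1 has a near-identical copy, Hmga1b (chr11:120762794-120764419, plus strand), at a mean of 207 CPM in WT Prol, and the assignment of reads between both is uncertain. The sum of both gave a log2 fold change of -3.16 (adjusted p = 3.05e-05). Hmga2 (chr10:120361275-120476469, minus strand), an AT-hook protein of embryonic tissues and stem cells, was at 418, 165 and 362 CPM in WT Prol and at 130, 63.1 and 69.7 CPM in WT D2. It fell 3.52-fold (log2 -1.82, SE 0.49, adjusted p = 0.0103), with the lowest Prol library still above the highest D2 library.

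Hmga2 is the best-known target of the let-7 microRNAs, which repress it through its 3′ untranslated region, so the sequences of its sites are shown. Let-7 itself was not measured in these poly(A) libraries. All 9 let-7 family members matched in RefSeq share the seed GAGGUAG (bases 2 to 8, in capitals).
let-7a-5p: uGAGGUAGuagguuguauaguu
The 3′ untranslated region of transcript Hmga2-201 is 2977 bases long in GENCODE M21 and holds 4 matches to the seed (CTACCTC, in capitals), starting at its bases 21, 1258, 1696 and 2554.
site 1: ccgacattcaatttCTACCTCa
site 2: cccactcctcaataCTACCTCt
site 3: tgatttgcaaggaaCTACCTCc
site 4: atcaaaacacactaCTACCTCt
Of 2843 mouse 3′ untranslated regions at least as long, cut to the same length, 17.1% held 1 or more such matches and 2 held 4 or more, Hmga2 included. Hmga1 held 1 match in 1178 bases and the other 7 HMG genes held 0. Among a list of genes tied to let-7 and Hmga2, Igf2bp1, an RNA-binding protein that stabilises oncofetal messages, fell in WT D2/Prol (156 to 90.9 CPM, log2 -0.77, adjusted p = 0.00496). It was the 1 of 5 tested genes of that list that was called, where 30.7% of all tested genes were called in either direction. Igf2bp2, Igf2bp3, Dicer1 and Ago2 were at limma adjusted p from 0.1 to 0.879.

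All 3 HMGB genes fell. Hmgb1 (chr5:149046702-149184489, minus strand), the most abundant and ubiquitous member, was at 597, 570 and 672 CPM in WT Prol and at 276, 317 and 235 CPM in WT D2. It fell 2.23-fold (log2 -1.16, SE 0.20, limma adjusted p = 0.000411). Pseudogenes and related sequences of Hmgb1 with values in the data reached at most 1.35 CPM in any library. Hmgb2 (chr8:57511907-57515999, plus strand), the member tied to proliferating cells, was at 302, 269 and 304 CPM in WT Prol and at 35.5, 92.5 and 86.3 CPM in WT D2. WT D2 replicate 1 stood well below the others of its group, all D2 libraries were below all Prol libraries, and the gene fell 4.43-fold (log2 -2.15, SE 0.33, adjusted p = 0.000122). Hmgb3 (chrX:71555918-71560676, plus strand), a member of embryonic and stem cells, was at 86.2, 94.8 and 100.0 CPM in WT Prol and at 8.46, 16.4 and 14.5 CPM in WT D2. It fell 7.40-fold (log2 -2.89, SE 0.24, adjusted p = 4.67e-07), the smallest adjusted p of the 9.

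In LAP2alpha KO cells, 8 of the 9 genes fell between Prol and D2 and 0 rose, including the 6 called in WT, where 15.2% of all tested genes fell and 32.3% changed in either direction. The summed level went from 2652 CPM ± 83.7 (SD, n = 3) to 1051 ± 62.5, and the groups did not overlap for 8 genes, all lower in D2, where 22.6% of all genes were lower without overlap. Hmga1 was at 512, 363 and 481 CPM in KO Prol and at 100.3, 42.6 and 53.6 CPM in KO D2, and fell 7.31-fold (log2 -2.87, SE 0.41, limma adjusted p = 6.52e-05). Hmgb3 was at 91.1, 79.8 and 87.1 CPM and then at 11.7, 9.48 and 13.9 CPM, and fell 7.43-fold (log2 -2.89, SE 0.24, adjusted p = 7.07e-07). These 2 again had the steepest falls. Hmgb2 was at 247, 255 and 265 CPM in KO Prol and at 36.5, 52.3 and 81.3 CPM in KO D2, a fall of 4.75-fold (log2 -2.25, SE 0.33, adjusted p = 8.22e-05). Hmgb1 was at 640.4, 571 and 563 CPM and then at 273, 228 and 269 CPM, a fall of 2.31-fold (log2 -1.21, SE 0.20, adjusted p = 0.000289).

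The other falls in KO were smaller against their spread. Hmga2 was at 376, 221 and 305 CPM in KO Prol and at 160.1, 45.0 and 94.4 CPM in KO D2 (log2 -1.74, SE 0.49, limma adjusted p = 0.0126), and the call was lost without KO Prol replicate 1 (0.0529) or KO D2 replicate 2 (0.078). Hmgn1 was at 539, 667 and 659.5 CPM and then at 328, 375 and 396 CPM (log2 -0.76, SE 0.22, adjusted p = 0.0133), and the call was lost without KO Prol replicate 3 (0.0531). Both genes kept separate groups with D2 below Prol. Hmgn2 was at 242, 341 and 279 CPM in KO Prol and at 98.9, 189 and 149 CPM in KO D2 (log2 -1.01, SE 0.32, adjusted p = 0.0219), and the call was lost without KO Prol replicate 2 (0.0826), KO Prol replicate 3 (0.0552) or KO D2 replicate 1 (0.0968). Hmgn5 was at 27.9, 16.0 and 16.7 CPM and then at 11.7, 5.24 and 7.32 CPM (log2 -1.35, SE 0.50, adjusted p = 0.0498), at the edge of the threshold, with the call lost in 11 of the 18 fits that left out 1 library. The fall of Hmgn2 was called in KO and not in WT, but the difference between both was not, as given below. Hmgn3 was at 34.5, 42.2 and 32.1 CPM in KO Prol and at 30.9, 41.4 and 48.3 CPM in KO D2, with overlap and a log2 fold change of 0.14 (SE 0.23, adjusted p = 0.705).

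**Figure D2:**
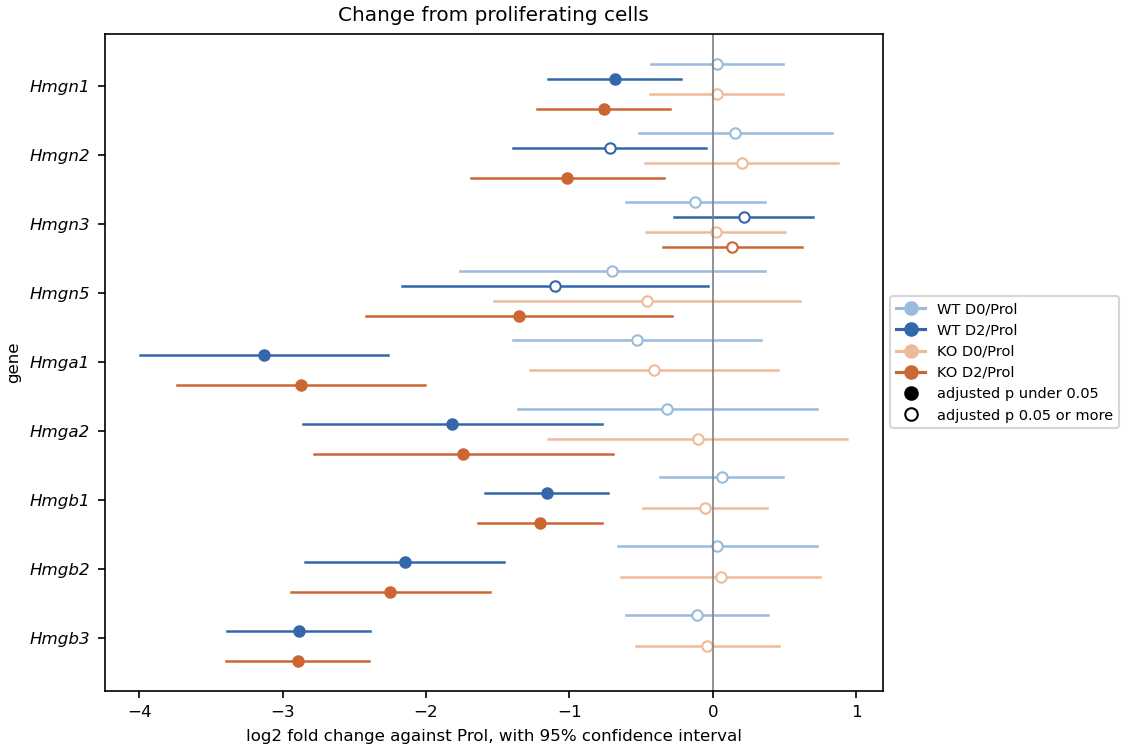
Log2 fold change against Prol of each HMG gene (points) with its unadjusted 95% confidence interval (lines) at D0 (pale) and D2 (dark), in WT (blue) and KO (orange), with filled points at a limma adjusted p under 0.05. The D0 points scatter about 0 and are all open, while the D2 points lie between -0.68 and -3.13 in WT except for Hmgn3 at 0.21.

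No HMG gene passed the test between Prol and confluence. Between Prol and D0, 0 of the 9 genes were called in WT (limma), where 0.00566% of all genes were called, and 0 had an unadjusted p under 0.05, where 2.17% of all genes did. In KO, 0 of the 9 were called, where 0% of all genes were, and 0 had an unadjusted p under 0.05, where 1.12% did. With voom weights the counts of called genes were also 0 and 0. These fits had no replicate block. The log2 fold changes of the 9 genes had a minimum of -0.70 and a maximum of 0.15 in WT. In KO they reached from -0.46 up to 0.20. At the low end of both ranges was Hmgn5, at 22.8, 5.77 and 9.25 CPM in WT D0 and at 26.0, 7.91 and 13.9 CPM in KO D0. Its lowest and highest libraries at D0 lay further apart in ratio than those of any other HMG gene. Against the Prol library of the same number, Hmgn5 was lower at D0 in 3 of 3 pairs of each genotype. The log2 differences were -0.19, -0.93 and -0.98 in WT and -0.10, -1.02 and -0.26 in KO. Hmgn2 went the other way, higher at D0 in 3 of 3 pairs of each genotype. Hmgb3 was at 67.1, 103 and 94.1 CPM in WT D0 and at 82.6, 73.5 and 96.1 CPM in KO D0, on both sides of its Prol values, with the lowest D0 library of each genotype below all Prol libraries and the highest above those of its own genotype.

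Measured from D0, the falls to D2 were of similar size. In WT, 6 of the 9 genes fell and 0 rose, where 11.3% of all genes fell and 26% changed in either direction. In KO, 7 fell and 0 rose, where 12.9% fell and 28.3% changed in either direction. These comparisons share their D2 libraries with those against Prol and are not independent of them. Hmgb3 fell 6.86-fold in WT and 7.23-fold in KO (log2 -2.78 and -2.85), Hmga1 6.07-fold and 5.50-fold (log2 -2.60 and -2.46), and Hmgb2 4.52-fold and 4.93-fold (log2 -2.18 and -2.30), each at a limma adjusted p of 0.000307 or less. Hmgb1 fell by 1.22 and 1.15 on the log2 scale (adjusted p = 0.000333 and 0.000519). The chromatin-bending HMGB genes and Hmga1 thus passed the test in all 4 comparisons of D2 with Prol or D0, also in each fit that left out 1 library. Hmgn1 and Hmga2 passed in all 4 as well, but not in each fit that left out 1 library.

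Hmgn1 fell by 0.71 in WT (limma adjusted p = 0.0237) and by 0.79 in KO (0.0126) on the log2 scale from D0 to D2. The WT call was lost without WT D0 replicate 2 or 3 or without WT D2 replicate 1 or 3 (adjusted p from 0.0691 to 0.105), and the KO call without KO D0 replicate 3 (0.0631). Hmga2 was at 175, 177 and 415 CPM in WT D0 and 242, 198 and 425 CPM in KO D0, so replicate 3 of each group stood well above the others. It fell by 1.497 in WT (adjusted p = 0.0342) and by 1.63 in KO (0.0204), and these calls were lost without WT D0 replicate 3 (0.179), WT D2 replicate 2 (0.111) or 3 (0.104), and without KO D0 replicate 3 (0.108) or KO D2 replicate 2 (0.115). Hmgn2 fell in KO (log2 -1.21, adjusted p = 0.00906) and had a log2 fold change of -0.87 in WT (adjusted p = 0.0533), which passed the test without WT D0 replicate 1 (0.0229), WT D2 replicate 2 (0.0295) or KO D2 replicate 1 (0.0409). Hmgn5 had values of -0.40 in WT (0.616) and -0.89 in KO (0.206). The labels state no pairing, but the KO D2 and D0 libraries of the same number deviated together (correlations of 0.41, 0.44 and 0.15). They were therefore taken to pair by number, and with replicate as a block Hmgn5 passed in KO (limma adjusted p = 0.00332). Hmgn3 had values of 0.34 (0.314) and 0.12 (0.745), and the WT value passed as a rise (log2 0.61, adjusted p = 0.0443) when WT D2 replicate 1 was left out.

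No HMG gene passed the test between LAP2alpha KO and WT in any state. In KO/WT, 0 of the 9 genes were called by limma in Prol, at D0 and at D2, where 0.00566%, 0% and 0% of all genes were called. In this fit, which had no replicate block, no HMG gene had an unadjusted p under 0.05, where 1.11%, 1.47% and 1.96% of all genes had one. Unadjusted p-values with the block are not given. With voom weights 0 were called in each state. The log2 fold changes ran from -0.19 to 0.17 in Prol, from -0.17 to 0.41 at D0 and from -0.33 to 0.25 at D2. The 2 HMG genes nearest a difference at D2 were Hmgn2, at 186 CPM in WT and 146 in KO (log2 -0.33, 95% interval -1.005 to 0.34), and Hmgb2, at 71.4 and 56.7 CPM (log2 -0.29, interval -0.98 to 0.40). Hmga1 was at 53.6 CPM in WT D2 and 65.5 in KO D2 (log2 0.25, interval -0.62 to 1.11). These intervals come from the fit without a replicate block. They reach a 2-fold change for Hmgn2 and beyond it for Hmga1, so that fit does not exclude differences of that size. Against the WT D2 library of the same number, Hmgn2 was lower in KO in 3 of 3 pairs (log2 -0.23, -0.38 and -0.39). Hmgb2 was lower in 2 pairs and higher in 1, and Hmga1 was higher in 3 of 3 (0.43, 0.13 and 0.19). Intervals with the block are not given.

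The narrowest intervals at D2 were those of Hmgb1 (log2 -0.10, -0.53 to 0.33), Hmgn1 (-0.02, -0.48 to 0.44), Hmgn3 (-0.14, -0.63 to 0.34) and Hmgb3 (-0.13, -0.62 to 0.37). For these 4 genes the interval leaves out a 2-fold change either way. Hmgn5, the member whose protein binds LAP2alpha, was at 8.23 CPM ± 1.92 (SD, n = 3) in WT D2 and 8.07 ± 3.28 in KO D2, with a log2 fold change of -0.08 and an interval of -1.15 to 0.99. Hmga2 had a log2 fold change of 0.08 and an interval of -0.96 to 1.13. Of the 9 genes, Hmgb2 in Prol alone had KO libraries all below all WT libraries, at 247, 255 and 265 CPM against 302, 269 and 304 CPM, where 2.56% of all genes were lower in KO without overlap. Over the 9 pairs of WT and KO libraries with the same state and number, Hmgb2 and Hmgn2 were lower in KO in 7 each, and Hmga1 was higher in KO in 7. The other HMG genes were lower in KO in 3 to 5 pairs. How many of all tested genes reach 7 pairs was not counted, so no genotype difference can be read from these counts.

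For no HMG gene did the difference between genotypes in the change from Prol to D2 pass the test. The difference of the KO and WT changes was called for 0 of the 9 genes (limma), where 0% of all genes were called. In this fit without a replicate block, 0 had an unadjusted p under 0.05, where 0.945% of all genes did. The 9 values ran from -0.30 to 0.26 on the log2 scale, with a median of -0.08. Beside these values, 8 muscle differentiation genes were summed (Myog, Mymk, Myh3, Actc1, Tnnc1, Ckm, Mef2c and Acta1). Their sum ranged from 3066 to 6544 CPM in WT D2 and from 1808.5 to 2336 CPM in KO D2, a difference that was not tested. Their median log2 fold change KO/WT at D2 was -0.97, and 0 of the 8 genes were called. The study, which blocked on lane, reports several muscle-related genes among those that differ between genotypes at D2. In the fit used here 0% of all genes were called in KO/WT at D2, so 0 calls do not show that a difference is absent.

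**Figure D3:**
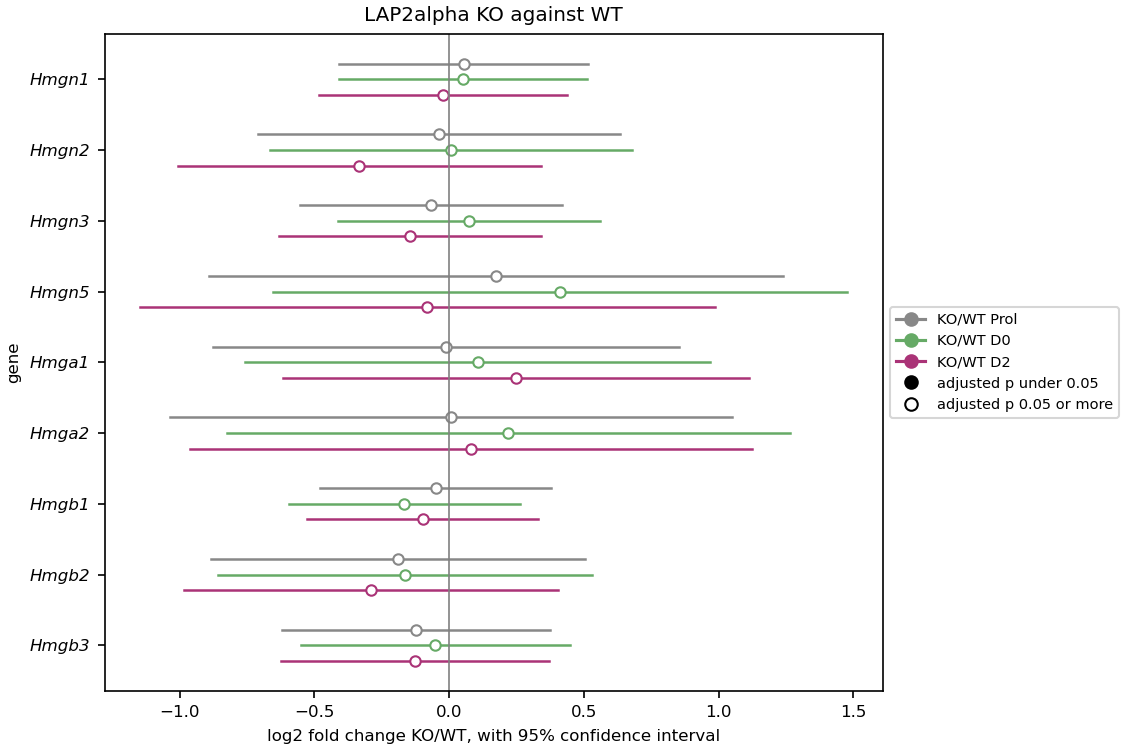
Log2 fold change KO/WT of each HMG gene (points) with its unadjusted 95% confidence interval (lines) in Prol (grey), at D0 (green) and at D2 (purple). All 27 points are open (limma adjusted p of 0.05 or more). All intervals, from the fit without a replicate block, cross 0, with the widest for Hmgn5 and Hmga2 and the narrowest for Hmgb1.

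Several HMG genes followed the replicate number across groups. Hmgn1 and Hmgn2 were lowest in replicate 1 in 6 of 6 groups, and Hmgn2 was highest in replicate 2 in 6 of 6. Hmgn5 went the other way, highest in replicate 1 and lowest in replicate 2 in 6 of 6 groups. Hmga1 was lowest in replicate 2 in 6 of 6 groups, Hmga2 was lowest there in 5 of 6, and Hmgb2 was lowest in replicate 1 in 5 of 6. Hmgb1, Hmgb3 and Hmgn3 held no such order in more than 4 groups. The labels do not say what a replicate number stands for. The study's methods name the sequencing lane as a batch and block on it, but the labels give no lane, so the lane was not in the fit used here and whether the numbers follow it is unknown. Fits with the number as a block are given where they change a call.

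**Figure D4:**
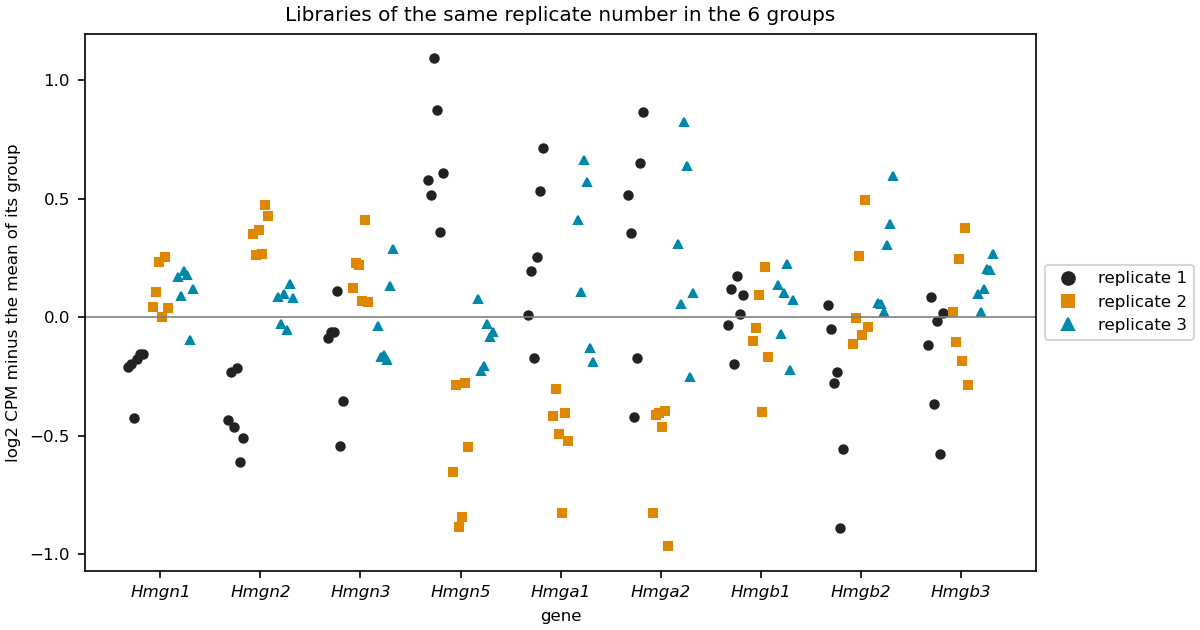
Log2 CPM of each library minus the mean of its group (vertical axis) for each HMG gene (horizontal axis), with 6 points per replicate number, 1 from each group. For Hmgn1 and Hmgn2 all 6 libraries of replicate 1 lie below 0, for Hmgn5 all 6 lie above, and for Hmga1 all 6 libraries of replicate 2 lie below 0.

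Over the 18 libraries the HMGB genes varied together, with Pearson r of log2 CPM of 0.97 for Hmgb1 with Hmgb3, 0.98 for Hmgb2 with Hmgb3 and 0.92 for Hmgb1 with Hmgb2. Hmga1 and Hmga2 had r = 0.94, and Hmgn1 and Hmgn2 had r = 0.90. Hmgn5 with Hmgn2 gave r = 0.06, and Hmgn3 gave r from -0.65 (with Hmga2) to 0.12 (with Hmgn2). These values describe 18 points that share the 6 groups, the same libraries and the replicate numbers, and they were not split into parts between and within groups. Among 9479 genes with a mean of at least 10 CPM, those most like Hmgb3 were Plk4, Vrk1 and Ccnb1 (r = 0.995 to 0.997), which act in centriole duplication, chromatin phosphorylation and mitotic entry. Those most like Hmgb2 were Gm13237, Ckap2 and Sgo1 (r = 0.993 to 0.995). Hmgb1 was closest to Pgk1, Snrpa1 and Snrpd3 (r = 0.987 to 0.989), and Hmga1 to its copy Hmga1b, Grk6 and Tpm3 (r = 0.993 to 0.997).

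The remaining genes had other neighbours. Hmgn1 was closest to Phb2, Glrx5 and Mrpl12 (r = 0.985 to 0.987) and Hmgn2 to Stmn1, Haus1 and Mrpl58 (r = 0.981 to 0.984). Hmga2 was closest to Nol10, Slc16a1 and Gprc5a (r = 0.969 to 0.974), and Hmgn5 to Gltp, Nfic and Epn1 (r = 0.963). Hmgn3 had the loosest neighbours, Slc25a11, Orai3 and Ift22 (r = 0.884 to 0.918). Of a list of 20 cell-cycle genes, 20 fell in WT D2/Prol and in KO D2/Prol, with a median log2 fold change of -2.50 in WT and -2.61 in KO, against -0.01 and 0.02 over all tested genes. The steepest falls of that list in WT were in Rrm2 (285 to 34.1 CPM, log2 -3.06), Aurkb (92.6 to 13.1 CPM, -2.96), Mcm5 (230.4 to 32.4 CPM, -2.83) and Ccna2 (380.4 to 55.5 CPM, -2.81), which serve nucleotide synthesis, mitosis, replication and cell-cycle progression, each at an adjusted p of 4.81e-06 or less. The falls of Hmga1 and Hmgb3 were as large as these, that of Hmgb2 was near the list's median, and those of Hmgb1 and Hmgn1 were smaller. The sum of the list went from 4224 to 5009 CPM in WT Prol to 710 to 1044 CPM in WT D2, and its part in the HMG levels was not tested.

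Among linker histones, with which HMGN proteins compete on nucleosomes, 5 of 7 fell and 1 rose in WT D2/Prol and in KO D2/Prol. Of all tested genes, 14.1% fell and 30.7% changed in either direction in WT, and 15.2% fell and 32.3% changed in KO. The medians of the list were -1.95 and -1.64, against -0.01 and 0.02 over all tested genes. H1f2 rose from 7.25 to 36.1 CPM in WT (log2 2.31, SE 0.25, limma adjusted p = 4.77e-06). H1f4 fell from 5.18 to 0.771 CPM (log2 -2.75, adjusted p = 0.00213), and H1f5 and H1f1 fell at means of 1.08 CPM or less in WT Prol. Most messages of these replication-dependent histones lack a poly(A) tail, so their levels in poly(A) libraries do not stand for all of their RNA. H1f10, a replication-independent linker histone, fell from 28.1 to 12.1 CPM in WT (log2 -1.22, adjusted p = 0.00112) and from 27.8 to 10.03 CPM in KO (log2 -1.47, adjusted p = 0.000225). H1f0, the polyadenylated linker histone of resting cells and the most abundant of the list, was at 179 CPM in WT Prol and 131 in WT D2 (log2 -0.58, adjusted p = 0.285).

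Of 28 other HMG-box and FACT genes, 26 had values and were tested. In WT D2/Prol 6 fell and 3 rose, with a median log2 fold change of -0.39 against -0.01 over all tested genes, and in KO D2/Prol 7 fell and 5 rose. These counts of called genes stand beside 30.7% of all tested genes called in either direction in WT and 32.3% in KO. The steepest fall in WT was in Wdhd1, an HMG-box replication factor (60.1 to 10.8 CPM, log2 -2.58, limma adjusted p = 2.03e-05). Ssrp1, the HMG-box subunit of the histone chaperone FACT, fell from 508 to 169.5 CPM (log2 -1.61, adjusted p = 0.00172), and its partner Supt16 also fell (226 to 94.6 CPM, log2 -1.34, adjusted p = 0.0338). Of the 3 that rose, Sox8 went from 0.316 to 5.47 CPM (log2 4.29, adjusted p = 1.82e-05) and Hmg20b from 37.4 to 55.8 CPM (log2 0.58, adjusted p = 0.0126). Sox6, which governs muscle fibre type, was at 0.0590 CPM in WT Prol, below the level of 3 reads per library, and at 0.719 CPM in WT D2 (adjusted p = 0.0202).

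Of 8 genes for receptors and partners of extracellular HMGB1, 7 had values. Tlr4 rose in both genotypes, from 15.1 to 29.3 CPM in WT (log2 0.94, limma adjusted p = 0.00169) and from 13.4 to 32.1 CPM in KO (log2 1.24, adjusted p = 0.000168). Cxcr4 rose from 0.355 to 1.16 CPM in WT (log2 1.72, adjusted p = 0.00411) and Tlr2 from 10.5 to 23.3 CPM (log2 1.22, adjusted p = 0.0209). In all, 3 rose and 0 fell in WT, and 3 rose and 0 fell in KO. In KO, Cxcl12, the chemokine that HMGB1 binds, took the place of Tlr2. Of all tested genes, 30.7% were called in either direction in WT and 32.3% in KO. The median of the 7 was 0.63 in WT, against -0.01 over all tested genes. Ager, which encodes RAGE, was at 2.04 CPM in WT Prol and 2.82 in WT D2 (log2 0.47, adjusted p = 0.6). In KO/WT at D2, 0 genes of the linker histone, HMG-box, Hmga2 or HMGB receptor lists were called.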

How the data were processed

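Per the labels and the study's methods, single-end reads of poly(A) RNA were trimmed with cutadapt, aligned to the GRCm38 transcriptome and quantified per gene with RSEM, and the authors deposited 1 table of normalised values per library, CPM on the voom scale with 0.5 added to each expected count, scaled by TMM in edgeR. A count of 0 is thus slightly above 0. Expected counts were recovered from the smallest value of each library, and intervals on them cover counting error only. In R 4.3.3, limma 3.58.1 fitted log2 of the deposited values of 17672 genes, those whose expected count exceeded 5 in each of the 3 libraries of some group, with a mean-variance trend and 1 term for the 6 groups. Calls were at a Benjamini-Hochberg adjusted p under 0.05. The script was tested on simulated data. Named genes were all 9 HMG genes, up to 4 genes of each list with the largest log2 change among those called in WT D2/Prol, and the 3 genes nearest each HMG gene by Pearson correlation. H1f0, H1f10, Supt16, Hmg20b, Ager, Cxcl12, the uncalled let-7 genes and the cell type markers were named after their values were seen. The members and lists were chosen with earlier results of these data known. Same-numbered libraries deviated together (correlation over 0.1) in 25 of 27 pairs. This held for every pair in 7 of the 9 comparisons of groups, all but WT D2/Prol and WT D2/D0. In these 7 the numbers were taken to pair the libraries. The fit that gave the main values did not use this pairing, so its standard errors, p-values and intervals treat the libraries as unpaired. Alternatives covered scaling, filters, voom weights, the replicate block, the groups fitted and each library left out. Sequences came from RefSeq (GRCm38.p6) and GENCODE M21. Figures used matplotlib 3.10.9.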

Additional observations from a re-analysis of the deposited data

How the results depend on the processing

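The falls of Hmga1, Hmgb1, Hmgb2 and Hmgb3 at D2 kept their direction and passed the test under each alternative fit run. As applied here, the study's criteria were an unadjusted p under 0.05, at least 10 CPM in 1 library compared and a log2 change over 1.5. Under them some counts of HMG genes called moved by more than 1.5 times. They went to 4 in KO D2/Prol, 3 in WT D2/D0 and 4 in KO D2/D0, where 1445, 1188 and 1261 of 17672 genes were called. The count in KO D2/Prol ranged from 5 to 8 over fits leaving out 1 library. It was 5 without KO Prol replicate 3, where 4222 of 17672 genes were called. Among comparisons with D2, over such fits the log2 fold change changed sign for Hmgn5 in WT D2/D0 (-0.84 to 0.15), for Hmgn3 in KO D2/Prol (-0.0082 to 0.31) and KO D2/D0 (-0.028 to 0.29), and in KO/WT D2 for Hmgn1 (-0.10 to 0.10), Hmgn3 (-0.42 to 0.061), Hmgn5 (-0.38 to 0.19), Hmga1 (-0.11 to 0.52), Hmga2 (-0.35 to 0.57), Hmgb1 (-0.21 to 0.0077) and Hmgb3 (-0.42 to 0.061). In the D0/Prol comparisons, KO/WT in Prol and at D0, and the difference of the changes, 81 of 1220 alternative values had the opposite sign, 79 of them from leaving out 1 library, and 0 were called. The cause was not tested.

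With the replicate number as a block, Hmgn2 (limma adjusted p = 0.000282) and Hmgn5 (0.000638) passed in WT D2/Prol, and Hmgn2 (6.23e-05) passed in WT D2/D0. In these 2 comparisons not every pair of libraries deviated together. Besides these and Hmgn5 in KO D2/D0, the block changed no call of an HMG gene. On library totals alone the calls of Hmgn1 in WT D2/D0 (0.0784), and of Hmgn2 (0.0787) and Hmgn5 (0.0631) in KO D2/Prol were lost. In fits on only the groups compared, Hmgn1 lost its call in WT D2/Prol (0.0622), WT D2/D0 (0.187) and KO D2/D0 (0.0870) and Hmga2 in WT D2/D0 (0.0576), while Hmgn5 passed in WT D2/Prol (0.0492). Hmgn5 in KO D2/Prol also lost its call under median-of-ratios scaling (0.0539), and Hmgn2 passed in WT D2/D0 with a filter at 10 CPM (0.0471). In the D0/Prol and KO/WT comparisons and in the difference of the changes, 0 HMG genes were called under 29 alternatives.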
